A study of Mus musculus with 8 samples.

Results

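Arntl, Clock and Npas2 encode the activating transcription factors of the circadian clock, and their mRNA was followed in mouse liver over 8 circadian times. The genes were taken by name from the annotated transcripts of the deposited tables. They are 3 of the 24143 genes named there, and each has a single RefSeq transcript in the tables (NM_007489 for Arntl, NM_007715 for Clock and NM_008719 for Npas2). The study sequenced polyadenylated liver RNA of wild-type (WT) C57/BL6 mice, with 1 library at each of 8 times from CT23 to CT65. CT, circadian time, counts hours of the animals' internal day. All animals had first lived in alternating light and darkness and were then kept in constant darkness, in light-tight boxes, until the liver was taken. Each library holds equal amounts of RNA from 3 animals, so the spread between animals cannot be seen, and the series has no replicate library at any time. Sex and age are not given in the labels. The times are 6 h apart and visit each phase on 2 internal days. CT23 and CT47 are phase CT23, late in the animals' night. CT29 and CT53 are phase CT5, within their day, and CT35 with CT59 is phase CT11, late in that day. CT41 with CT65 is phase CT17, within the night.

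The protein made from Arntl, also called BMAL1, pairs with CLOCK or with NPAS2, and the pair binds E-box sequences and switches on its target genes. Among these targets are the Per and Cry genes, whose products inhibit the pair, and Nr1d1 and Nr1d2, whose REV-ERB products repress Arntl through sequences called RORE. ROR proteins bind the same sequences and activate. CLOCK and NPAS2 are close relatives with basic helix-loop-helix and PAS domains. NPAS2 is best known from the forebrain and is also made in liver.

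In the mm9 coordinates of the files, Arntl lies on the plus strand at chr7:120350979-120457636 with 20 exons. Clock lies on the minus strand at chr5:76641202-76733573 with 23 exons, and Npas2 on the plus strand at chr1:39251117-39420085 with 21 exons. Their spliced transcripts measure 2904, 7478 and 4180 bases. No exon of the 3 shares bases with a transcript of a differently named gene.

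The promoter sequences of RefSeq (GRCm38.p6, a later build than that of the files) hold 2 start windows for Arntl, 3 for Clock and 1 for Npas2, each from 250 bases before to 50 bases after a start. The RORE was searched on both strands as ANTAGGTCA and, in a relaxed form that contains the first, as ANTAGGTNA. Arntl was the 1 gene of the 3 with a match. Its windows hold a match to the relaxed form and, 36 bases further on, a match to the strict form, printed 5′ to 3′ because REV-ERB and ROR proteins meet the gene at such sequences. Capitals mark the match, and both runs lie within the first exon of the transcript from the upstream start.
Arntl, relaxed match at chr7:113207495-113207519: ggtcggaaAGTAGGTTAgtggtgcg
Arntl, strict match at chr7:113207531-113207555: aggcagaaAGTAGGTCAgggacgga
The strict form occurs in 0.661% of the 32851 windows of all genes and the relaxed form in 2.04%. None of the windows of Clock and Npas2 holds either form. The E-box CACGTG and the D-box TTANNTAA, which both read the same on either strand, were found in 0 of the 6 windows of the 3 genes, against 7.15% and 6.0% of all windows. A match is a stretch of letters and not a site shown to be bound, and the absence of a match refers only to these windows. First exons had few reads over all libraries, with 9 for Arntl, 10 for Clock and 2 for Npas2, so the start in use was not determined.

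Among the genes the activators are known to act on, 4 of the 6 feedback repressors with a window (Per1, Cry1, Bhlhe41 and Ciart) held CACGTG, against 8.09% of all genes with a window. These genes were listed as known targets, so the count is a description. In the other lists, given below, 4 of 18 cofactors and modifiers and 1 of 11 bHLH-PAS relatives and coactivators held it. So did 1 of 4 D-box factors and 0 of 5 regulators at RORE sequences. One run of each of the 4 repressors is printed as the kind of sequence to which the activator pair binds, with the E-box in capitals, in GRCm38.p6.
Per1, plus strand, chr11:69098775-69098796: cccaagtcCACGTGcagggatg
Cry1, minus strand, chr10:85185101-85185122: ccggtggtCACGTGgggtgcat
Bhlhe41, minus strand, chr6:145865560-145865581: acgttccgCACGTGagctgggt
Ciart, minus strand, chr3:95882331-95882352: tctagagtCACGTGttgccggt

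The depth of the libraries was even but for CT35. Levels are in RPKM, reads per length of transcript scaled to the size of the library. The reads that 1 RPKM stands for in a transcript of 1 kilobase gave a depth of 22.9 M (mega) in CT35 and of 11.7 to 13.9 M in every other library. Intron reads made up 14.7% of reads in CT35 and 19.8 to 22.4% in the others, so results that rest on CT35 are also given without it. Markers of hepatocytes were at their known high levels, with Alb at 26546 to 53810 RPKM. Of the neuronal markers, Snap25 was at 0 in 7 of 8 libraries, and the summed level of Snap25, Rbfox3 and Syt1 was 0.441 to 3.16 RPKM.

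Arntl mRNA was high late in the night and lowest late in the day. Its level was 11.6 RPKM (438 reads) at CT23, 3.78 (132 reads) at CT29, 0.271 (18 reads) at CT35 and 6.45 (219 reads) at CT41. On the second day it was 12.8 RPKM (481 reads) at CT47, 1.72 (62 reads) at CT53, 0.673 (23 reads) at CT59 and 9.08 (366 reads) at CT65. The levels at phase CT23 and phase CT17 lay above those at phase CT5, and these above those at phase CT11, with no overlap between neighbouring phases. The highest library, CT47, exceeded the lowest, CT35, 47.4-fold, with a 95% counting interval of 29.7 to 80.7. Without CT35 the ratio of CT47 to CT59 was 19.1, with an interval of 12.6 to 30.4.

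Clock mRNA moved over a narrower range. Its level was 7.25 RPKM (706 reads) at CT23, 7.19 (647 reads) at CT29, 2.03 (347 reads) at CT35 and 4.17 (365 reads) at CT41. It then measured 5.73 RPKM (552 reads) at CT47, 5.14 (478 reads) at CT53, 2.57 (226 reads) at CT59 and 4.97 (516 reads) at CT65. Both libraries of phase CT11 were below the other 6, and both of phase CT17 were below those of phases CT23 and CT5. Phases CT23 and CT5 overlapped, so their order could not be told from these libraries. The highest library exceeded the lowest 3.58-fold, with a counting interval of 3.14 to 4.08, and without CT35 2.82-fold (2.43 to 3.29).

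Npas2 mRNA was abundant only in the libraries of phase CT23. Its level was 5.48 RPKM (298 reads) at CT23, 0.895 (45 reads) at CT29, 0.0104 (1 read) at CT35 and 0.123 (6 reads) at CT41. The second day gave 4.08 RPKM (220 reads) at CT47, 0.135 (7 reads) at CT53, 0.0610 (3 reads) at CT59 and 0.362 (21 reads) at CT65. CT23 and CT47 stood above all 6 other libraries, and phases CT5 and CT17 overlapped. Because CT35 had 1 read, the ratio of 527 between CT23 and CT35 carries a counting interval of 93.8 to 20868. Without CT35, CT23 over CT59 (3 reads) gave a ratio of 89.8, with an interval of 30.4 to 438. In bulk tissue, fewer cells that express a gene and less RNA in each cell cannot be told apart.

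**Figure D1:**
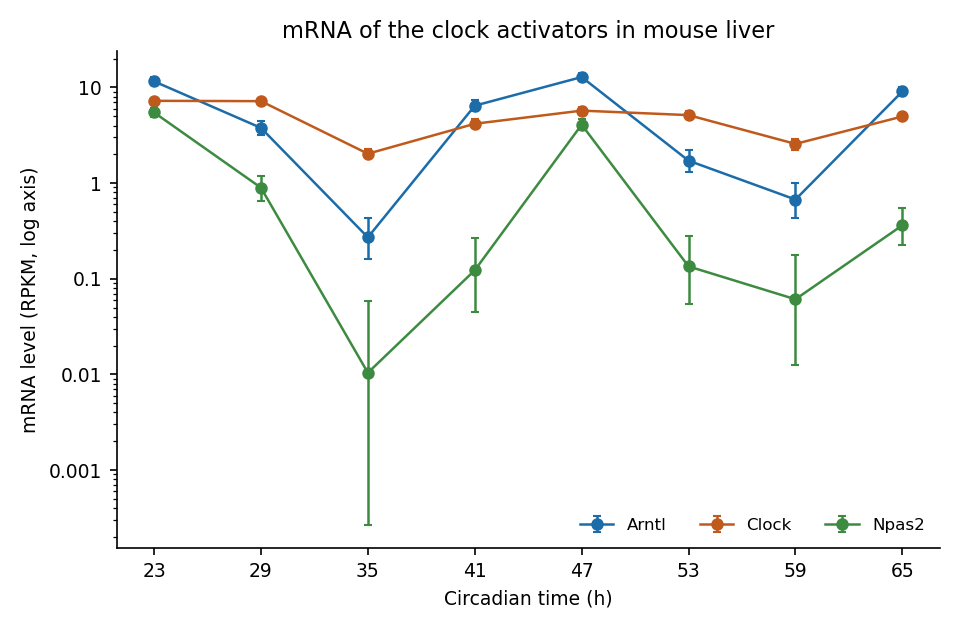
mRNA level in RPKM on a log axis against circadian time in hours for Arntl (blue), Clock (orange) and Npas2 (green), 1 library per point, with bars for the 95% counting interval. All 3 genes are lowest at CT35 and low again at CT59, and the Npas2 course falls from 5.48 RPKM at CT23 to 1 read at CT35.

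The first question was whether each mRNA followed a daily wave. A 24-h cosine and sine were fitted in limma on log2(RPKM + 0.5), and both terms were tested jointly. With an adjusted p under 0.05 as the threshold, all 3 genes passed, where 3.05% of the 11483 genes tested did. Arntl had a fitted peak-to-trough difference of 3.99 (SE 0.37) on that log2 scale, which is 15.9-fold, with limma's adjusted p = 0.000356. Its fitted peak was at 21.6 h (SE 0.35 h) of the internal day. The difference for Clock was 1.37 (SE 0.27) or 2.59-fold, with a peak at 0.0744 h (SE 0.75 h) and limma's adjusted p = 0.0352. For Npas2 it was 3.31 (SE 0.58) or 9.91-fold, peaking at 23.4 h (SE 0.67 h), with limma's adjusted p = 0.0401. The pseudocount of 0.5 compresses a gene that falls as low as Npas2, so its fold on this scale understates the change between libraries.

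The 3 genes differed in how large their amplitude was among cycling transcripts. Ranked by peak-to-trough difference among the 350 called genes, Arntl was number 6 and Npas2 number 13. Clock was number 183, and the median fold of the called genes was 2.63. The order of Npas2 and Arntl depended on the pseudocount: with 0.1 the log2 difference was 5.21 for Npas2 and 4.78 for Arntl. On recovered reads it was 7.41 and 4.71 with edgeR, and 7.37 and 4.98 with DESeq2. The calls differed in how much they rested on single libraries. Arntl passed without each library in turn (adjusted p 4.71e-05 to 0.00392), and without CT35 its difference was 3.57. Clock lost its call without CT23 (adjusted p = 0.122), CT35 (0.0606), CT41 (0.0655), CT53 (0.081) or CT59 (0.151). Npas2 lost its call without CT23 (0.119), CT29 (0.129), CT35 (0.174), CT47 (0.105) or CT65 (0.153). Its fitted difference stayed between 2.76 and 3.77 in the 8 fits that each left out 1 library.

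**Figure D2:**
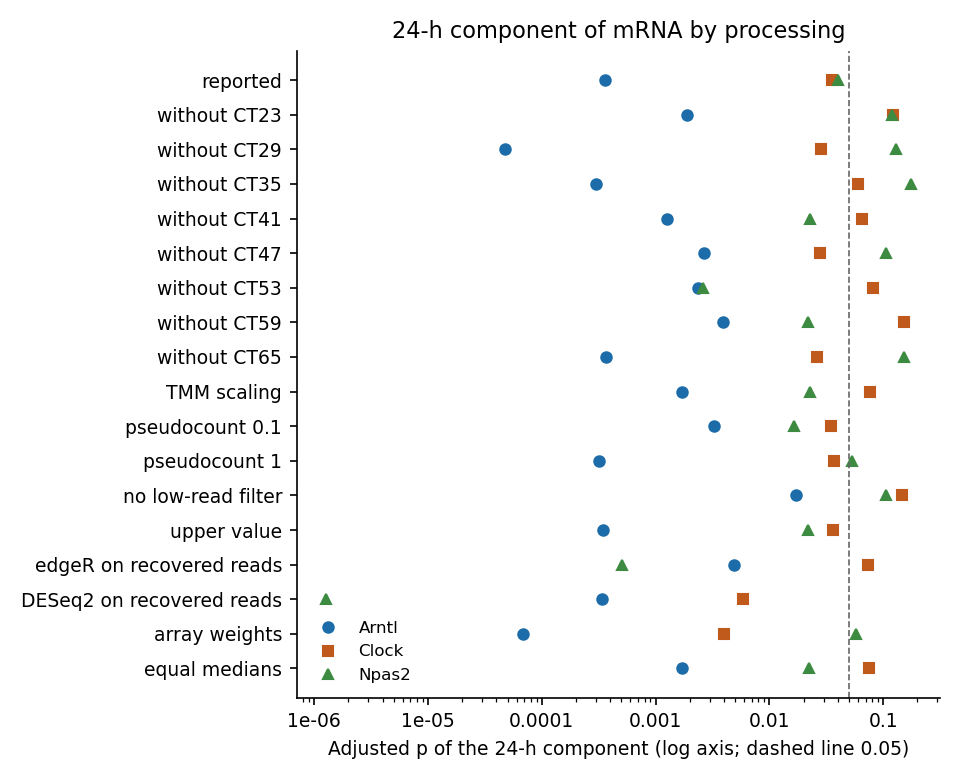
Adjusted p of the 24-h component on a log axis for each setting (rows), with the dashed line at 0.05, for Arntl (circles), Clock (squares) and Npas2 (triangles). Arntl lies left of the line in every row shown, while Clock and Npas2 cross it in several rows.

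The cosine term compared phase CT23 with phase CT11. Arntl was higher at CT23 by 3.74 (SE 0.37) on the log2(RPKM + 0.5) scale, with limma's adjusted p = 0.000229. Clock was higher by 1.32 (SE 0.27) and Npas2 by 3.29 (SE 0.58), both with limma's adjusted p = 0.0256. All 3 genes were thus called in the direction of CT23, against 1.11% of all genes tested in that direction and 2.01% in either. Clock lost this call without CT23, CT35, CT53 or CT59 (adjusted p 0.0551 to 0.155). Npas2 lost it without CT23, CT29, CT35, CT47 or CT65 (0.0761 to 0.178).

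Phase CT5 against phase CT17, the sine term, compared the middle of the day with the middle of the night. The difference was −1.41 (SE 0.37) for Arntl, 0.38 (SE 0.27) for Clock and 0.36 (SE 0.58) for Npas2. None of the 3 passed (limma's adjusted p = 0.0975, 0.572 and 0.849), where 1.2% of genes did. Arntl passed without CT29 (adjusted p = 0.0278) or without CT35 (0.0288). Scaling the libraries by TMM, edgeR's trimmed mean scaling, moved the median gene in this comparison from 0.11 to 0.00, and the values then were −1.53 for Arntl, 0.26 for Clock and 0.32 for Npas2.

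Whether 2 genes followed different courses was tested on the ratio of their RPKM values, with an exact two-sided permutation test over the orders of the 8 libraries. For Arntl over Clock the ratio was 1.60 at CT23, 0.525 at CT29, 0.134 at CT35 and 1.55 at CT41. It was 2.24 at CT47, 0.334 at CT53, 0.262 at CT59 and 1.83 at CT65. Arntl was the more abundant per length in all 4 libraries of phases CT17 and CT23, and Clock in all 4 of phases CT5 and CT11. The ratio had a 24-h difference of 3.89 (SE 0.51) on the log2 scale with its peak at 20.9 h (exact permutation p = 0.00635, adjusted over the 3 pairs 0.019). The smallest p this design can give is 0.00317. Without CT35 the adjusted exact permutation p was 0.0476.

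Npas2 over Clock had a 24-h difference of 6.06 (SE 1.2) on the log2 scale, with its peak at 23.2 h (exact permutation p = 0.0159, adjusted 0.0238). This call was lost without CT23 (adjusted p = 0.0524 by the exact permutation test), CT35 (0.138) or CT65 (0.0667). Arntl over Npas2 did not pass, with a difference of 3.56 (SE 1.11) and an exact permutation p of 0.117 (adjusted 0.117). That ratio was 2.12 at CT23 and 3.15 at CT47, and between 4.22 and 52.6 in the other 6 libraries. A p of this size does not show that Arntl and Npas2 keep the same course. The 3 ratios share their genes and libraries.

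Clock and Npas2 are alternative partners of the Arntl product, so their balance per length of transcript was followed as well. Npas2 made up 43.0% of the summed RPKM of Clock and Npas2 at CT23 (exact 95% interval 39.7 to 46.4) and 41.6% at CT47 (37.8 to 45.5). It made up 11.1% at CT29 (8.24 to 14.4) and 6.79% at CT65 (4.28 to 10.1). In the remaining libraries the share was 0.513% at CT35, 2.86% at CT41, 2.55% at CT53 and 2.32% at CT59, with upper limits of 2.81 to 6.57%. The intervals of CT23 and CT47 overlapped each other and no other library's. Intervals cover counting error only, since reads without molecular identifiers are not independent molecules. They do not cover the choice of transcript model, whose length sets the level of each gene.

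Arntl per length exceeded the sum of both partners in 3 libraries, CT41 (ratio 1.5), CT47 (1.31) and CT65 (1.70). At CT23 the ratio was 0.910, and at phases CT5 and CT11 it was 0.133 to 0.467. Such ratios between genes depend on the length of the transcript models, so a value near 1 does not settle which side was higher. The Npas2 model of 4180 bases includes an exon 1 of 471 bases with 2 reads over all libraries. A shorter Npas2 model of 3186 bases held 285 reads at CT23, where the model used held 298. These are ratios of mRNA and say nothing of the amounts of protein.

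**Figure D3:**
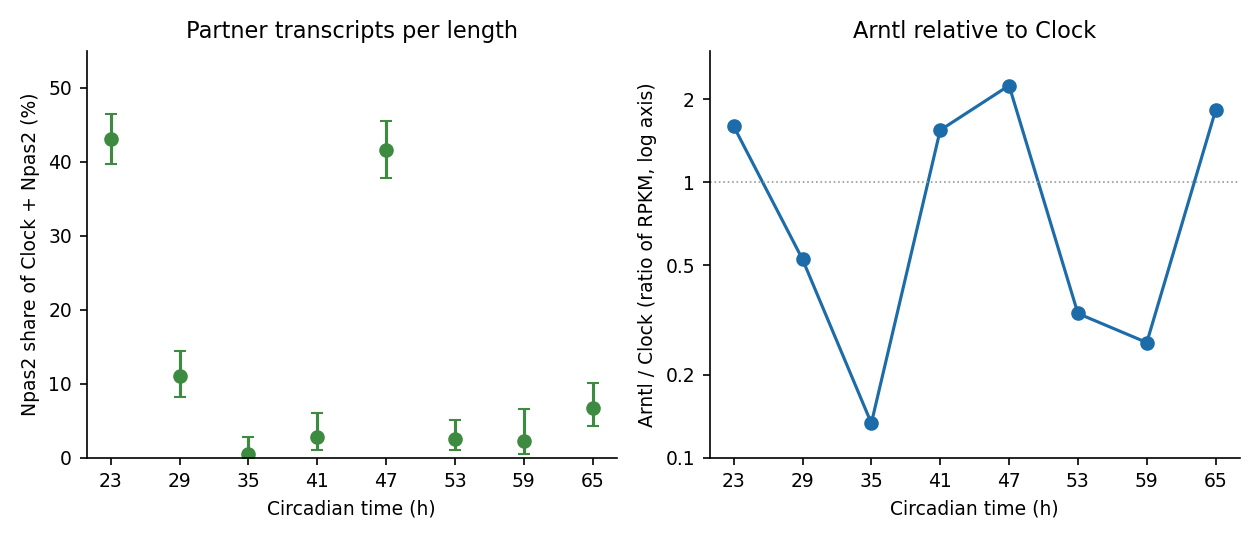
Left, Npas2 as a percent of the summed RPKM of Clock and Npas2 against circadian time in hours, with exact 95% intervals; right, the ratio of Arntl to Clock RPKM on a log axis, with a dotted line at 1. The share stands at 43.0% and 41.6% at CT23 and CT47 and at no more than 11.1% elsewhere, and the ratio lies above 1 at CT23, CT41, CT47 and CT65.

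Intron reads, which can come from RNA not yet spliced, gave a second view of the genes. Reads of other transcripts that lie within an intron, on either strand, would be counted with them. Arntl introns had 590 reads at CT23, 65 at CT29, 50 at CT35 and 325 at CT41. They had 504 reads at CT47, 47 at CT53, 63 at CT59 and 563 at CT65. Per length this was 0.437, 0.0521, 0.0211 and 0.268 RPKM on the first day and 0.377, 0.0364, 0.0516 and 0.391 RPKM on the second. Phases CT17 and CT23 stood far above phases CT5 and CT11, which overlapped. In limma on log2(intron RPKM + 0.05) the 24-h difference was 3.14 (SE 0.29), or 8.81-fold, with its peak at 20.4 h and an adjusted p of 4.0e-06. An unnamed transcript model lies inside intron 2 of Arntl. With that intron left out, an alternative chosen after the data had been seen, the difference of the introns was 3.18 with limma's adjusted p = 2.01e-06.

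Npas2 introns had 363 reads at CT23, 19 at CT29, 5 at CT35 and 37 at CT41, then 302 at CT47, 8 at CT53, 1 at CT59 and 122 at CT65. At CT65 they stood at 31.5% of their highest level, and the mRNA at 6.61% of its own. The fitted difference was 2.09 (SE 0.29) with a peak at 21.9 h, and limma's adjusted p was 0.00604. The adjusted p was 0.0214 without CT35 and 0.122 without CT47.

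Clock introns had 199 reads at CT23, 106 at CT29, 62 at CT35 and 100 at CT41, then 193 at CT47, 87 at CT53, 93 at CT59 and 186 at CT65. The 2 libraries of phase CT23 were the highest per length, phase CT5 overlapped phases CT17 and CT11, and CT35 was the lowest. The fitted difference of 1.12 (SE 0.29) peaked at 21.9 h and did not pass, with limma's adjusted p = 0.0929. It passed without CT59 (0.0283). Without CT35 the fitted difference of the Clock introns was 0.809. Introns of 2 of the 3 genes were called, against 2.19% of the 9859 genes tested.

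The fitted mRNA peak lay after the fitted intron peak in all 3 genes, by 1.26 h for Arntl, 2.15 h for Clock and 1.49 h for Npas2. The SE of the intron peak was 0.35 h for Arntl, 0.98 h for Clock and 0.53 h for Npas2. That of the mRNA peak was 0.35, 0.75 and 0.67 h. The lags were not tested, and the libraries are 6 h apart. Over the 116 genes called in both fits the median lag was 0.795 h, with quartiles at 0.243 and 1.37 h. The lag of Clock includes an intron course that was not called. The ratio of mRNA to intron RPKM for Arntl was 72.6 at CT29 and 47.1 at CT53, 23.2 to 34.1 at phases CT17 and CT23, and 12.9 and 13.0 at CT35 and CT59. For Npas2 it was 6.39 at CT41 and 6.78 at CT65, against 32.4 at CT23 and 28.7 at CT47. The other Npas2 ratios were 93.4 at CT29, 7.84 at CT35, 34.5 at CT53 and 118 at CT59, and in CT35, CT53 and CT59 they rest on at most 8 intron reads. For Clock it ranged from 27.6 to 69.3, with CT29 (69.3), CT35 (63.5) and CT53 (62.4) highest and CT59 (27.6) lowest. CT35 had the lowest share of intron reads over all genes, 14.7%, so its ratios are not read by clock phase.

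A 24-h component of the mRNA-to-intron ratio was not called for any of the 3 genes, with limma's adjusted p of 0.523 for Arntl, 0.805 for Clock and 0.380 for Npas2. None of the 9220 genes tested passed (0%), and 596 had an unadjusted p under 0.05, among them Arntl (0.00522) and Npas2 (0.00185).

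**Figure D4:**
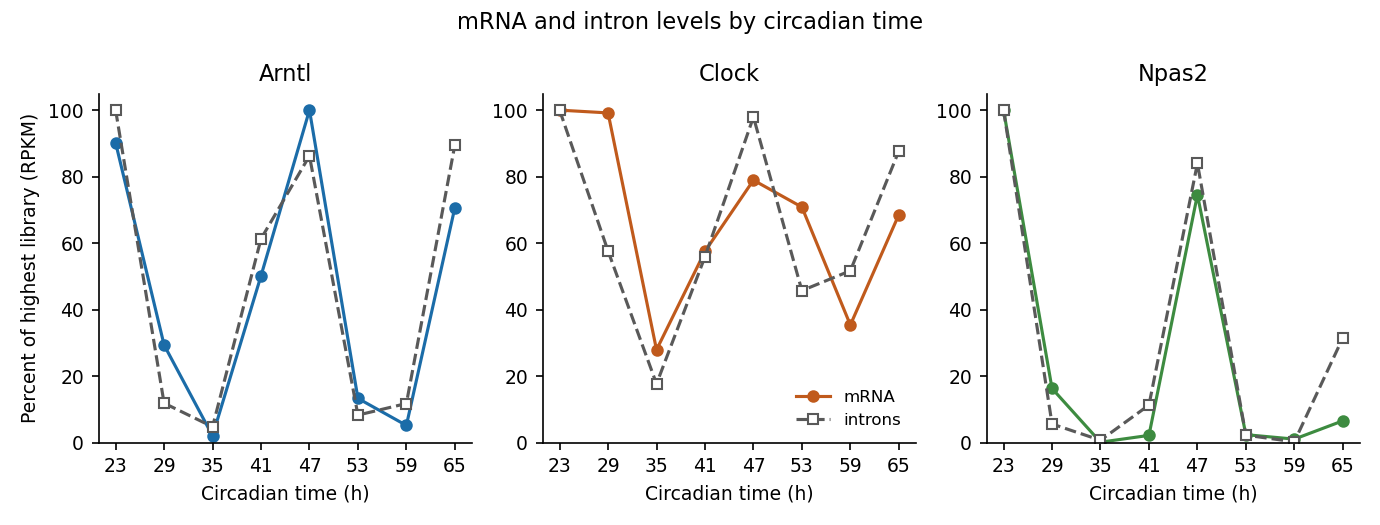
mRNA (filled circles) and introns (open squares) of each gene as a percent of its highest library in RPKM, against circadian time in hours, 1 library per point. The introns of Npas2 are visible at CT65 where its mRNA is at 0.362 RPKM, and the mRNA of Clock and Arntl at CT29 lies above their introns.

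Where the intron reads lay along the gene was also followed, a split chosen after the values had been seen and not tested. Introns 1 and 2 hold 56.2% of the intron bases of Npas2. Their share of its intron reads was 70.3% at CT41 (exact 95% interval 53 to 84.1) and 66.4% at CT65 (57.3 to 74.7). It was 49.6% at CT23 (44.3 to 54.9), 45.4% at CT47 (39.7 to 51.2) and 21.1% at CT29 (6.05 to 45.6). The interval of CT65 overlapped neither that of CT23 nor that of CT47, while that of CT41, the other library of phase CT17, overlapped that of CT23. For Arntl, where introns 1 and 2 hold 64.5% of intron bases, the share was 47.1 to 50.6% in the 4 libraries of phases CT17 and CT23. It was 35.4% at CT29 (23.9 to 48.2) and 38.3% at CT53 (24.5 to 53.6). The libraries of phase CT11 had 52.0% at CT35 (37.4 to 66.3) and 73.0% at CT59 (60.3 to 83.4). For Clock, with 35.6% of intron bases there, it was lowest at CT53 at 20.7% (12.7 to 30.7), 23.6% at CT23 (17.9 to 30.1) and highest at CT65 at 40.3% (33.2 to 47.7).

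Reads across splice junctions come from spliced RNA alone and were deposited as counts. These were summed over the junctions of a gene, so a read that crosses several junctions can count at each. For Arntl the sum over all libraries was 2180, against 1739 reads of the whole transcript. Arntl had 520, 160, 44 and 269 junction reads on the first day (CT23, CT29, CT35 and CT41) and 622, 86, 32 and 447 on the second. By edgeR's quasi-likelihood test the peak-to-trough fold was 25.5 with a peak at 21.6 h and an adjusted p of 0.00188. Npas2 had 202, 27, 2 and 7 reads on the first day and 155, 4, 4 and 12 on the second. Its fitted fold was 139 with a peak at 23.3 h and edgeR's adjusted p = 0.000431, so that in junction reads its fold exceeded that of Arntl. Both kept their calls without each library in turn.

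Clock had 365, 389, 180 and 189 junction reads on the first day and 295, 237, 126 and 255 on the second. CT35, the deepest library, held nearly as many as CT41, and scaled to each library's junction reads it was the lowest, at 12.2 reads per M of them against 22.6 to 73.8 in the others. Over all genes CT35 held 14.7 M junction reads at its depth of 22.9 M. The others held 5.27 to 6.23 M at 11.7 to 13.9 M, so this scaling lowers CT35 more than scaling by depth would. The fitted fold was 3.48 with a peak at 23.8 h and did not pass (edgeR's adjusted p = 0.119). DESeq2 gave an adjusted p of 0.0126 for the same counts. In the edgeR test 2 of the 3 genes were called, against 2.11% of the 8563 genes tested.

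Single exons were fitted to see whether the whole transcript followed 1 course. A read that overlaps an exon in part counts for it, so exon values are compared only across libraries, and exons of 1 gene are not replicates. The pseudocount of 0.5 RPKM limits the fold that a weakly covered exon can reach, so the order of folds between exons is not read as a difference in course. For Arntl 18 of 20 exons had enough reads and 17 were called, against 0.884% of the 67449 exons tested. Their peak-to-trough folds ran from 9.78 (exon 12) to 75.2 (exon 16, the one not called), and their peaks all lay between 21.2 and 22.1 h.

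For Npas2 11 of 21 exons were tested and 6 were called, namely 13, 17, 18, 19, 20 and 21. Their fitted folds ran from 6.17 to 104, and the peaks of the 11 from 22.4 to 23.7 h. The lowest fold is that of the last exon, 21, whose level was 2.83 RPKM in CT23 and 0 in CT35, CT41 and CT59, so the pseudocount bounds its fold. Leaving out 1 library moved the count of called Npas2 exons between 0 (without CT23 or CT47) and 10 (without CT53). It was 3 without CT35 and 3 without CT65. For Clock 14 of 23 exons were tested, 10 to 23, since exons 1 to 9 had too few reads, and 0 were called by limma. An unadjusted limma p under 0.05 was found for 13 of them, and for 8037 of all 67449 exons tested. Folds ran from 2.21 (exon 13) to 3.96 (exon 14, adjusted p = 0.0525), with peaks between 23.3 and 1.23 h.

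**Figure D5:**
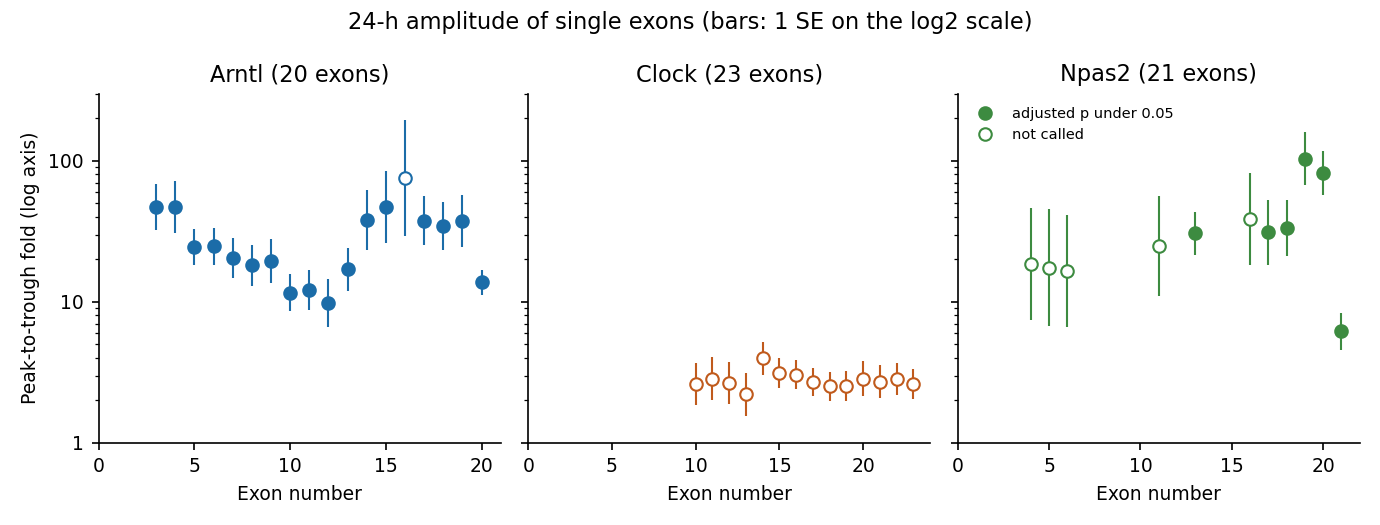
Peak-to-trough fold of the 24-h fit for each tested exon on a log axis against exon number, with bars of 1 SE on the log2 scale; filled circles have an adjusted p under 0.05. Arntl folds lie between 9.78 and 75.2, Clock folds between 2.21 and 3.96 with none called, and folds of weakly covered exons, such as the last of Npas2 at 6.17, are limited by the pseudocount.

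Splice junctions of the 3 genes mostly joined annotated neighbours. Junctions of the transcripts used here took 98.2% of junction reads for Arntl, 94.6% for Clock and 97.4% for Npas2. Arntl and Clock each used a second acceptor 3 bases inside an exon, and both of these forms are annotated in another transcript. The bases around the joint are printed from GENCODE transcripts (GRCm38), matched by exon lengths, because they show what the choice of acceptor adds. Capitals mark the 3 bases that the second acceptor leaves out.
Arntl, exon 12 joined to exon 13: caaagaaaaaagCAGatcgaaaaagct
Clock, exon 20 joined to exon 21: acatcaactcagCAGagtcaacagagt
Both optional stretches read CAG. The shorter form made up 24 of 92 junction reads for Arntl (26.1%, exact 95% interval 17.5 to 36.3) and 78 of 191 for Clock (40.8%, 33.8 to 48.2) over all libraries.

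By library the shorter Clock form took 44.1% of reads at CT23, 48.8% at CT29, 42.1% at CT35 and 42.1% at CT41. On the second day it took 13 of 26 reads at CT47, 28.0% at CT53, 12.5% at CT59 and 31.6% at CT65. These shares rest on 8 to 41 reads each, their intervals all overlap, and no difference between times was detectable at this depth.

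Joints in no annotated transcript were rare, with 4 junctions and 5 reads for Arntl, 12 and 26 for Clock, and 7 and 11 for Npas2. Exon 17 of Clock was joined to exon 19 in 5 reads, where the joints that include exon 18 averaged 131.5 reads (3.66% skipping). Exon 22 of Clock was joined to 3 positions beyond the annotated end of the gene, between 76629586 and 76634503 on chromosome 5 (mm9), in 12 reads from 7 libraries. These positions lie within the neighbouring gene Tmem165, annotated on the plus strand at chr5:76612905-76638269. The annotated joint of exon 22 to the last exon had 251 reads. The junction tables give every junction the plus strand, so the strand of these reads is not known.

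The genes around the activators in the feedback loops were counted from lists drawn up from general knowledge. Of the E-box feedback repressors, 6 of 8 were called, against 3.05% of all genes tested. Per1, Per2 and Per3, which encode the period proteins, had folds of 6.30, 6.66 and 9.13 with peaks at 11.1, 14.7 and 11.5 h. Ciart, a repressor of the activator pair, had a fold of 16.1 at 10.9 h and Bhlhe41 (DEC2) of 3.07 at 6.47 h, while Cry1 (cryptochrome) had 3.89 at 18.5 h. Cry2 (fold 2.20, limma's adjusted p = 0.0546) and Bhlhe40 (2.05, 0.133) were not called. Of the 6 called, 5 were lower at CT23 than at CT11 and 1, Cry1, was higher, the sign of the fitted difference. By that sign 183 of all 350 called genes were lower at CT23 and 167 higher. The cosine term alone did not pass for Bhlhe41 (limma's adjusted p = 0.292) or Cry1 (0.135). Without CT35 all 8 passed. The list's median log2 difference was 2.31, against 0.36 for all genes tested.

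Among the regulators that act on RORE sequences, the repressors Nr1d1 and Nr1d2 were called. They had folds of 40.7 and 8.23 with peaks at 6.65 and 8.58 h, and both were lower at CT23 than at CT11 by the sign of the fit. For Nr1d1 the cosine term alone did not pass (limma's adjusted p = 0.153). Ncor1 (a corepressor, fold 1.2) and Hdac3 (a histone deacetylase, 1.27) were the most abundant of the list's genes that were not called. Nr1d1, whose product represses Arntl, had its fitted peak at 6.65 h and Arntl at 21.6 h. Of the D-box factors 3 of 4 were called, against the same 3.05%, namely Dbp (fold 90.6, peak 9.15 h), Tef (5.93, 10.9 h) and Nfil3 (4.69, 20.4 h). Hlf, the remaining member, had a fold of 1.36 (limma's adjusted p = 0.670). Dbp and Tef were lower at CT23 than at CT11, and Nfil3, a repressor at D-boxes, was higher.

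Of 16 genes for other bHLH-PAS proteins and PAS coactivators, 7 were expressed enough to test and 0 were called by limma or by edgeR. With 3.05% of all genes called, a count of 0 among 7 does not set these relatives apart. Epas1 (HIF-2α, mean 56.9 RPKM, fold 1.19) and Arnt (mean 8.83 RPKM, fold 1.17) were the most abundant. Arntl2, the closest relative of Arntl, averaged 0.205 RPKM, against 5.80 RPKM for Arntl, and was not tested. Of 19 cofactors and modifiers of the activator pair, 1 was called, a share near the 3.05% of all genes, namely the acetyltransferase gene Kat2b (fold 2.30, peak 7.82 h, limma's adjusted p = 0.0185). It was lost without CT23, CT41, CT59 or CT65. Csnk2b (107 RPKM, fold 1.12) and Nono (27.5 RPKM, fold 1.16) were the most abundant of the others. The 3 activators themselves correlated with each other at 0.797 (Arntl and Clock), 0.737 (Arntl and Npas2) and 0.705 (Npas2 and Clock) over the 8 libraries, as a description.

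The genes whose course was most like that of Arntl, by Pearson correlation of log2(RPKM + 0.5) over the 8 libraries among 9643 genes, were S1pr1 (0.982), Ppp1r3c (0.979), Pnrc1 (0.977), Mical2 (0.974) and Tjp3 (0.972). The most opposite were Atg14 (−0.983), Itch (−0.979) and Mcm10 (−0.978). For Clock the nearest were B3gat3 (0.988), Mad2l2 (0.973), Rtn4rl1 (0.969), Nup62 (0.954) and Pid1 (0.954). Dclre1a (−0.990), Gpt2 (−0.986) and Ncl (−0.985) ran most against it. Npas2 had less close neighbours, namely Ddhd1 (0.945), Slc44a1 (0.944), Adh6-ps1 (0.939), Dhrs3 (0.939) and Id3 (0.929). Per1 (−0.959), a target of the activators, was the most opposite to Npas2, followed by Mast3 (−0.957) and Trmt2b (−0.955). The points share libraries and depth, and with 8 of them these values are a description.

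No difference between the 2 days passed the test for any of the 3 genes. The second minus the first day, with the phase as a block, was 0.07 (SE 0.22) for Arntl, −0.06 (SE 0.17) for Clock and −0.23 (SE 0.21) for Npas2 on the log2(RPKM + 0.5) scale. Limma called none of these (adjusted p = 1 for each) and 0% of all genes, and 233 genes had an unadjusted p under 0.05. The sign turned for all 3 genes when some single libraries were left out. A 12-h component, phases CT23 and CT11 minus phases CT5 and CT17, was −0.53 (SE 0.22) for Arntl, −0.39 (SE 0.16) for Clock and 1.01 (SE 0.22) for Npas2. None of the 3 passed (limma's adjusted p = 0.539, 0.539 and 0.477), and 0.00871% of genes did. Unadjusted, limma's p was 0.0312 for Arntl, 0.0271 for Clock and 0.000655 for Npas2, and 1039 of all genes tested had one under 0.05.

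Markers of other cells were set beside these courses. The sum of Krt19, Epcam and Sox9, markers of bile duct cells, was 9.26 RPKM at CT23, 5.60 at CT47 and 5.65 at CT65, and 2.77 to 4.05 RPKM in the other 5 libraries. It was thus high in 3 of the 4 libraries in which Arntl was high. Most of the sum at CT23 was Sox9, at 7.69 RPKM, while Krt19 and Epcam reached at most 1.5 and 0.891 RPKM in any library. The neuronal sum ran the other way, with 0.441 to 0.826 RPKM at phases CT17 and CT23 and 2.36 to 3.16 at phases CT5 and CT11, almost all of it Syt1. Sums for endothelial (8.89 to 14.1 RPKM), Kupffer (19.1 to 38.1), stellate (3.96 to 6.39) and lymphoid markers (1.21 to 2.85) varied less widely in fold than Arntl or Npas2. The part of these cells in the results was not tested.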

How the data were processed

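Polyadenylated RNA of 8 libraries, 1 for each time, was analysed. The submitters' processing notes name mm9 as the genome build. The deposited tables give each transcript, exon and intron a lower and an upper value, named min and max per the file headers. The values behave as RPKM, although no header states the unit, and the sources used here name no quantifying program. The deposited junction tables hold a count of reads for each splice junction, made with RUM per the file headers. They state no strand setting, so antisense reads cannot be separated.

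The lower value was used, and it was a whole multiple of a step set by length and library, within 0.1 read for 98.4 to 99.5% of transcripts, which gave reads. Gene names came through RefSeq and Vega identifiers (79709 of 115699 transcripts), and each gene was represented by its transcript with the most reads.

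Genes with at least 20 reads in at least 2 libraries were fitted with limma 3.58.1 (trend, robust) on log2(RPKM + 0.5), introns on log2(RPKM + 0.05) and junction counts with edgeR 4.0.16 (TMM). Adjusted p-values are Benjamini-Hochberg values over every gene tested. They reflect how single pooled libraries scatter around the fit (5 residual degrees of freedom; 4 for the 12-h term and 3 for the days), which may be technical. The fits were tested on simulated counts in which the changing genes followed a 24-h cosine, so other shapes of course were not covered. Counting intervals are exact Poisson or binomial at 95%.

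Alternatives were each library left out, TMM or equal-median scaling, pseudocounts, no filter, the upper value, array weights, edgeR and DESeq2 1.42.0. Named were the 3 genes, called pathway genes, the 2 most abundant uncalled ones of each list, and the 5 most and 3 least correlated genes. The members and lists were chosen with earlier results of these data known. The files' build was not matched to the GRCm38 reference by coordinates. One result of a pathway list is not reported here.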

Additional observations from a re-analysis of the deposited data

How the results depend on the processing

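No paired analysis was possible because each time has 1 pooled library, and the clock phase served as a block for the day difference alone. Values are adjusted p unless stated, and the causes of changes were not tested. The 24-h call of Arntl mRNA held under every alternative run, and its intron and junction calls too. The call of Clock mRNA was lost with TMM (0.0759), equal medians (0.0754), no filter (0.146) and edgeR on recovered reads (0.0738), and its call at CT23 against CT11 with TMM (0.0518), no filter (0.124) and edgeR (0.0503). The call of Npas2 mRNA was lost with a pseudocount of 1 (0.0536), no filter (0.105) and array weights (0.058), and at CT23 against CT11 with no filter (0.0806). Clock junction reads passed with DESeq2 (0.0126) and with no filter (0.0324). The 12-h value of Npas2 turned in sign with edgeR (0.985). DESeq2 called 768 genes for the 24-h component of mRNA and edgeR 390, where limma called 350.

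Leaving out each library gave these ranges. For the 24-h component of mRNA they were 0.0264 to 0.151 for Clock and 0.00261 to 0.174 for Npas2, and for CT23 against CT11 0.0127 to 0.155 and 0.00128 to 0.178. For CT5 against CT17 they were 0.0278 to 0.414 for Arntl and 0.232 to 0.979 for Npas2, whose sign turned without CT41. The day difference ranged from 0.999 to 1 for each of the 3 genes, and its sign turned without 4 libraries for Arntl, 4 for Clock and 2 for Npas2. Introns gave 0.0283 to 0.289 for Clock and 9.6e-08 to 0.122 for Npas2, and the ratio of Npas2 to Clock 0.0143 to 0.138. The number of cofactors called ran from 0 to 1, of Clock exons from 0 to 1 and of Npas2 exons from 0 to 10. Depth limits Npas2 most, with 1 to 7 reads in 4 libraries.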
